A study of Mus musculus with 8 samples.

Results

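The genes described here are 10 core genes of the Notch pathway in muscle stem cells of the mouse: the receptors Notch1, Notch2 and Notch3, the ligands Dll1, Dll4 and Jag1, the nuclear factor Rbpj, and the target genes Hes1, Hey1 and Heyl. They were taken by name from the 27554 genes of the deposited count table, and all 10 were among the 11730 genes that passed the filter on low counts. RNA was sequenced from Pax7-positive cells of hindlimb muscle, separated on a flow cytometer. The mice were C57BL/6NTac and in every group carried the alleles Pax7tm3955(T2A-ZsGreen)Tac and, for Myf5, Myf5tm3956(T2A-E2Crimson)Tac, so that ZsGreen marked Pax7-expressing cells and E2Crimson followed Myf5. Myf5High and Myf5Low cells were the opposite ends of the E2Crimson range and were collected separately from females and males. This gave 4 groups with 2 libraries each, and each library came from a pool of 4 mice. No group was treated, and the age of the mice is not given in the sources used here. The sort was made on a reporter of Myf5 and on no component of the Notch pathway.

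Notch receptors are single-pass membrane proteins that are activated by ligands of the Delta-like and Jagged families on neighbouring cells. Ligand binding leads to cleavage of the receptor, and the released intracellular domain enters the nucleus and joins RBPJ on DNA, where target genes of the HES and HEY families of transcriptional repressors are switched on. In adult skeletal muscle, Notch activity is known to hold stem cells in quiescence and to restrain myogenic differentiation, and deletion of Rbpj from these cells leads to their loss.

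Promoter sequences were available for 7 of the 10 genes, in 9 entries. In the 250 bases before each start, both strands were searched for TGGGAA, the core of the RBPJ recognition sequence, and for CACNAG, the N box bound by HES repressors. TGGGAA was found in 2 of the 9 entries, against 21.6% of all 32851 promoters, and both are entries of Rbpj that overlap and share a match. CACNAG was found in 4 of the 9 entries, those of Notch1, Notch2, Notch3 and Dll4, against 36.7% of all promoters. The stretches shown are those of the 2 genes with more than 1 match to a motif in a single promoter entry, RefSeq sequence on GRCm38.p6, written 5′ to 3′ on the strand of the gene with the matches in capitals. The Rbpj stretch is chr5:53590177-53590306 on the plus strand, from 169 to 40 bases before the start, and the Notch3 stretch is chr17:32167024-32167114 on the minus strand, from 224 to 134 bases before the start.
Rbpj: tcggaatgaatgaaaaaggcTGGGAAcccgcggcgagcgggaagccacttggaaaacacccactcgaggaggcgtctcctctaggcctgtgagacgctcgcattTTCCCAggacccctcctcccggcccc
Notch3: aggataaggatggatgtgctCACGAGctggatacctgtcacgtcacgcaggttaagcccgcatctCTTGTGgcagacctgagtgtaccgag
The first Rbpj match reads along the gene and the second on the opposite strand, as do those of Notch3. A match describes the letters in the window and was not tested as a binding site.

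The 8 libraries held 3140361 to 4238427 gene counts, so that 3 counts corresponded to 0.671 to 0.984 CPM, the count normalised to library size. Pax7 was at 999 to 1496 CPM in all libraries, and all 10 listed muscle stem cell markers were counted. Myf5 lay between 39.4 and 128 CPM in Myf5High and between 24.95 and 49.8 CPM in Myf5Low, higher in Myf5High in 4 of 4 pools (edgeR log2 fold change 1.19 ± 0.265, SE, at an adjusted p of 0.0285). Myog, the factor that starts terminal myogenic differentiation, was at 0 to 1.27 CPM in Myf5High and at 93.5 to 532 CPM in Myf5Low. The second male Myf5High library stood apart from the other 7 on the first principal component (62.9, against at most 22.5), with the highest share of counts on its most counted gene, Gm42418 (28.8%), and the lowest mitochondrial share (0.694%). Its Myf5, at 39.4 CPM, was above that of the Myf5Low library of its own pool (28.6 CPM) and below that of the first male (41.8 CPM) and the second female (49.8 CPM) Myf5Low libraries. At the other end of that component lay the second female Myf5Low library (-52.5).

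All 10 genes were transcribed at levels that spanned more than 2 orders of magnitude per transcript length. Hes1 had the highest level, at 95.1 ± 21.4 CPM per kilobase of its principal transcript (SD, n = 8), above every library of the next gene, Heyl, at 35.8 ± 9.39. Hey1 followed at 27.8 ± 7.96 and Notch3, the highest receptor, at 26.0 ± 9.70. The ranges of Heyl, Hey1 and Notch3 overlapped. Heyl exceeded Hey1 in 7 of 8 libraries and Notch3 in 7 of 8, while Hey1 exceeded Notch3 in 5 of 8.

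Notch1 stood at 14.8 ± 3.72 and the highest ligand, Jag1, at 12.2 ± 4.75, and Notch1 was the higher of this pair in 4 of 8 libraries. Rbpj was at 9.29 ± 2.57, above the range of Notch2 at 4.89 ± 1.01. The Delta-like ligands were lowest, Dll1 at 3.12 ± 1.13 and Dll4 at 0.551 ± 0.411, without overlap between them. With the length of all annotated exons in place of the principal transcript, an alternative chosen after the values were seen, Hes1, Heyl, Dll1 and Dll4 had the same ranks. Notch3 and Hey1, Notch1 and Jag1, and Rbpj and Notch2 then exchanged places.

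**Figure D1:**
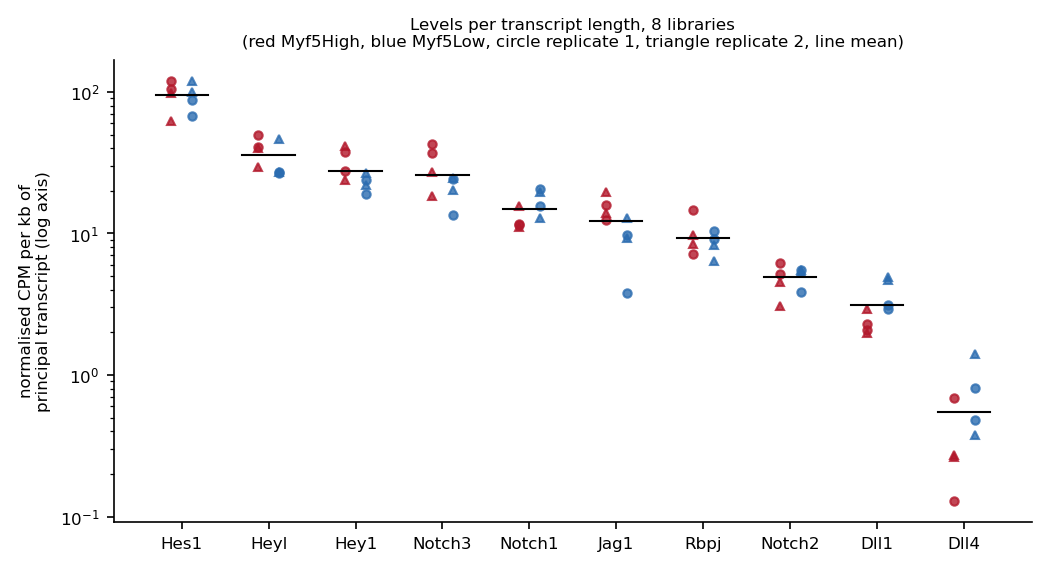
Normalised CPM per kilobase of the principal transcript (log axis) for the 10 Notch pathway genes in 8 libraries, ordered by their mean. Points are libraries, red for Myf5High and blue for Myf5Low, and lines are means over the 8 libraries. Hes1, at 62.8 to 120 CPM per kilobase, lies above all other genes, and Dll4, at 0.128 to 1.40, below all others.

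The comparison of Myf5High with Myf5Low asked whether cells at the ends of the Myf5 reporter range differed in these genes. None of the 10 passed the threshold of an adjusted p under 0.05 (edgeR's quasi-likelihood test, adjusted by Benjamini and Hochberg's method over 11730 genes), against 1.20% of all genes tested. DESeq2 also called 0 of the 10, against 1.99% of all genes by that tool. Without the second male Myf5High library edgeR called 1 of the 10, Notch3, against 1.94% of all genes in that fit. At an unadjusted edgeR p under 0.05 there were 4, Jag1, Notch3, Notch1 and Hey1, and 9.36% of all genes lay under that value. The same direction in all 4 pools was found for 4 of the 10, Jag1 with the higher value in Myf5High and Notch1, Dll1 and Dll4 with the higher value in Myf5Low, against 16.3% of all genes. For none of the 10 were the Myf5High and Myf5Low libraries without overlap, against 4.58% of all genes. The median log2 fold change of the 10 genes was 0.12, beside -0.02 over all genes tested. In bulk libraries, fewer cells that transcribe a gene and less RNA per cell cannot be told apart.

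**Figure D2:**
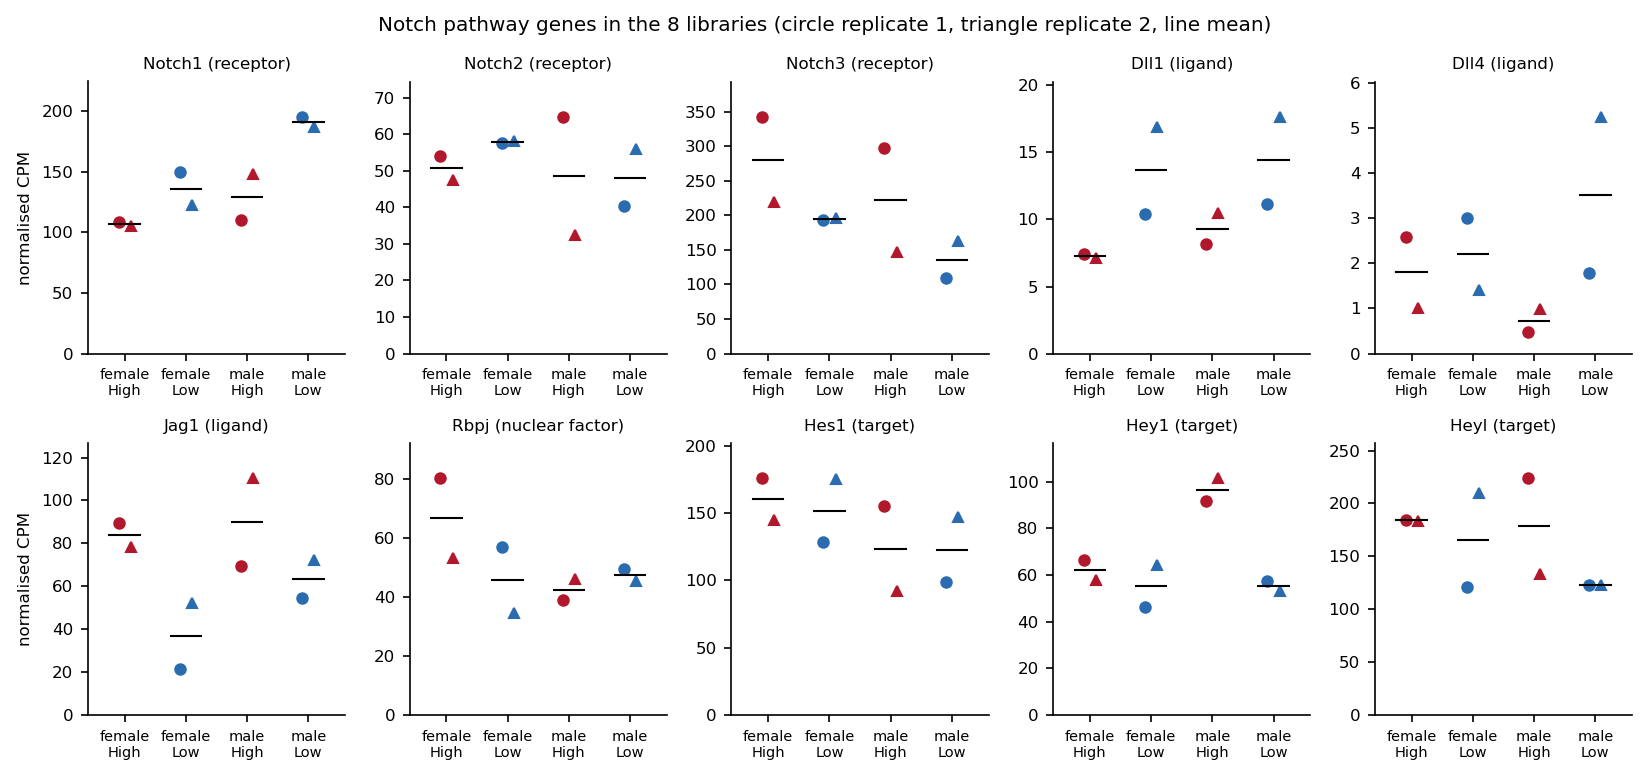
Normalised CPM of the 10 genes in each library, by group. Circles are replicate 1, triangles replicate 2 and lines the mean of the 2 libraries, with each axis starting at 0. Jag1 and Notch3 have higher means in Myf5High than in Myf5Low in both sexes and Notch1 and Dll1 lower ones, and the libraries of the fractions overlap for all 10 genes.

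Among the receptors, the differences of Notch3 and Notch1 had opposite signs, and neither passed the threshold. Notch3 (ENSMUSG00000038146, GRCm38 chr17:32120820-32166852, minus strand), a receptor also known from mural cells of blood vessels, was at 343 and 219 CPM in female Myf5High and at 298 and 147 CPM in male Myf5High. Notch3 in Myf5Low was at 193 and 196 CPM in females and at 109 and 163 CPM in males. It was higher in Myf5High in 3 of 4 pools, and the exception was the male pool that holds the library that stood apart. For Notch3, edgeR gave a log2 fold change of 0.62 (95% interval 0.14 to 1.10, SE 0.230) at an adjusted p of 0.321. Without that library, the second of male Myf5High, it was 0.83 and passed the threshold (edgeR adjusted p 0.0334), and without the first male Myf5High library it was 0.32 (edgeR adjusted p 0.627).

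Notch1 (ENSMUSG00000026923, chr2:26457903-26516663, minus strand), a receptor known to act in muscle stem cells, was at 108 and 105 CPM in female Myf5High and at 111 and 148 CPM in male Myf5High. Notch1 in Myf5Low was at 149 and 123 CPM in females and at 195 and 187 CPM in males. Its level was lower in Myf5High in each pool, although the second male Myf5High library reached the range of female Myf5Low. For Notch1, edgeR gave a log2 fold change of -0.46 (95% interval -0.84 to -0.07, SE 0.184) at an adjusted p of 0.393. Notch2 (ENSMUSG00000027878, chr3:98013527-98150361, plus strand), the third receptor, lay between 32.5 and 64.7 CPM in Myf5High and between 40.3 and 58.2 CPM in Myf5Low. For Notch2, edgeR gave a log2 fold change of -0.09 (95% interval -0.60 to 0.43, SE 0.246) at an adjusted p of 0.972. Without the second male Myf5High library its value had the other sign (0.12), and without the first it was -0.38.

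The ratio of Notch3 to Notch1 counts was higher in Myf5High than in Myf5Low in each of the 4 pools. It was 3.16 and 2.08 in female Myf5High against 1.29 and 1.60 in female Myf5Low. In males it was 2.70 and 0.996 in Myf5High against 0.557 and 0.874 in Myf5Low, so the fractions overlapped across sexes. This ratio was chosen after its values were seen and was not tested. In the 3 pools where Notch3 was higher in Myf5High, its direction followed from those of both genes.

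Among the ligands, Jag1 had a positive log2 fold change and both Delta-like ligands a negative one, and none passed the threshold. Jag1 (ENSMUSG00000027276, chr2:137081456-137116644, minus strand), the Jagged ligand, was at 89.4 and 78.3 CPM in female Myf5High and at 69.5 and 110.2 CPM in male Myf5High. Jag1 in Myf5Low was at 21.4 and 52.4 CPM in females and at 54.3 and 72.3 CPM in males. It was higher in Myf5High in all 4 pools, and the groups overlapped only where the second male Myf5Low library exceeded the first male Myf5High library. For Jag1, edgeR gave a log2 fold change of 0.84, or 1.79-fold (95% interval 0.29 to 1.39, SE 0.264) at an adjusted p of 0.191. It passed the threshold with no filter on low counts (0.84, edgeR adjusted p 0.0221) and without the second female Myf5Low library (1.24, edgeR adjusted p 0.0399). Without the second male Myf5High library it was 0.66 (edgeR adjusted p 0.274). Its adjusted p was between 0.0582 and 0.487 under the other alternatives tried.

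Dll1 (ENSMUSG00000014773, chr17:15367354-15376872, minus strand), a ligand known from differentiating myogenic cells, was at 7.42 and 7.12 CPM in female Myf5High and at 8.15 and 10.5 CPM in male Myf5High. Dll1 in Myf5Low was at 10.4 and 16.9 CPM in females and at 11.2 and 17.6 CPM in males. Each pool had its higher value in Myf5Low, and the fractions overlapped only in that the highest Myf5High library was just above the lowest Myf5Low library. For Dll1, edgeR gave a log2 fold change of -0.77 (95% interval -1.60 to 0.06, SE 0.396) at an adjusted p of 0.586. Exons of Dll1 are overlapped on the opposite strand by A930024N18Rik, which had 60 counts over the 8 libraries against 351 for Dll1. The strand setting of the counting is not given, so how reads in the shared bases were counted is not known.

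Dll4 (ENSMUSG00000027314, chr2:119325784-119335962, plus strand), a ligand best known from endothelial cells, was near the limit of counting. It had 8 and 4 counts in the female Myf5High libraries, 2 and 3 in the male Myf5High libraries, 11 and 6 in female Myf5Low and 8 and 22 in male Myf5Low. For Dll4, edgeR gave a log2 fold change of -1.27 (95% interval -3.53 to 0.98, SE 1.07) at an adjusted p of 0.841, an interval that includes both directions. Leaving out single libraries moved it between -1.67 (without the first female Myf5High library) and -0.79 (without the second male Myf5Low library), and it was -1.55 without the second male Myf5High library. The summed level of 10 endothelial markers was 331 to 661 CPM in Myf5High and 460 to 1051 CPM in Myf5Low, and its part in the Dll4 values was not tested.

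The ratio of Jag1 to Dll1 counts separated the fractions. It was 12.04 and 11 in female Myf5High and 8.53 and 10.5 in male Myf5High. In Myf5Low it was 2.05 and 3.10 in females and 4.86 and 4.09 in males. No Myf5Low library reached the lowest Myf5High value, but the ratio was chosen after its values were seen, and no test was made. With Jag1 higher and Dll1 lower in Myf5High in each pool, the direction of the ratio within each pool was already fixed.

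**Figure D3:**
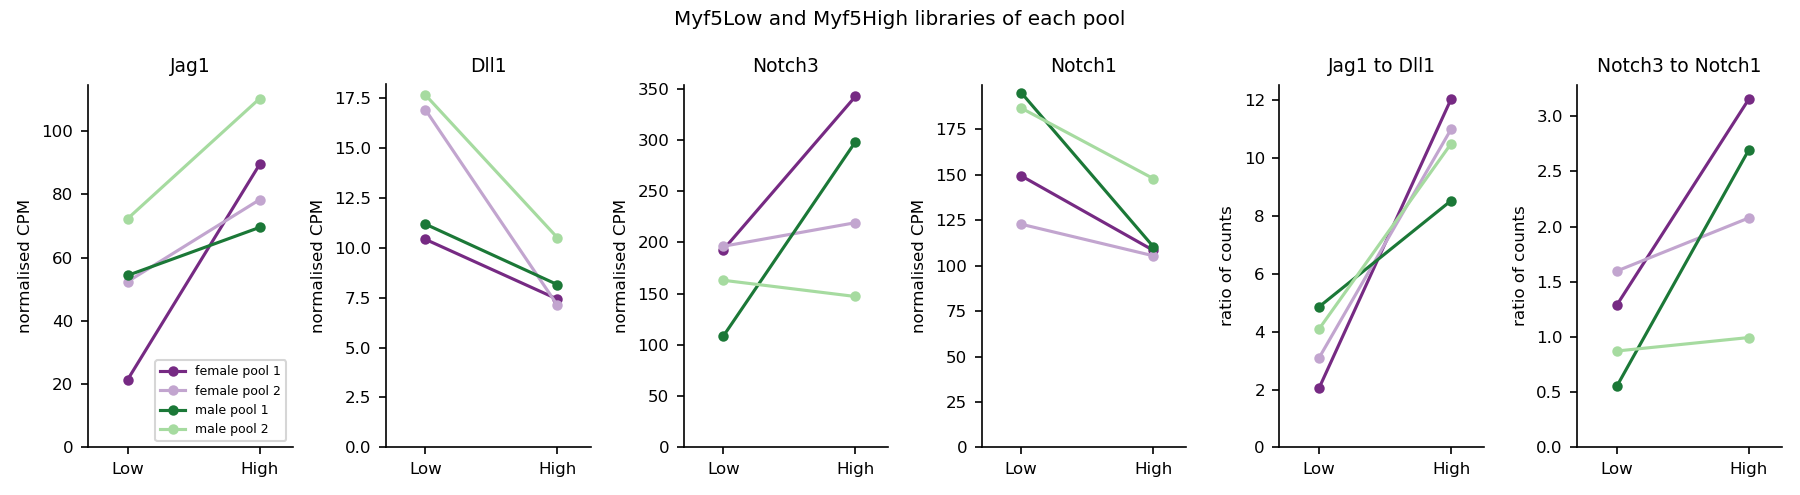
Normalised CPM of Jag1, Dll1, Notch3 and Notch1, and the ratios of counts of Jag1 to Dll1 and of Notch3 to Notch1, in the Myf5Low and Myf5High libraries of each pool (lines). Jag1 has the higher value in High in all 4 pools and Dll1 and Notch1 in Low. Notch3 is higher in High in 3 pools and at 163 CPM in Low and 147 CPM in High in the second male pool. Both ratios, chosen after their values were seen and not tested, are higher in High in all 4 pools. For Jag1 to Dll1 this direction follows from those of both genes in each pool.

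Rbpj (ENSMUSG00000039191, chr5:53466152-53657362, plus strand), the DNA-binding partner of every cleaved Notch receptor, was at 80.1 and 53.1 CPM in female Myf5High and at 38.8 and 45.9 CPM in male Myf5High. Rbpj in Myf5Low was at 57.03 and 34.5 CPM in females and at 49.4 and 45.3 CPM in males. The highest library was female Myf5High and the lowest female Myf5Low, and the fractions overlapped widely. For Rbpj, edgeR gave a log2 fold change of 0.19 (95% interval -0.32 to 0.69, SE 0.240) at an adjusted p of 0.917. Leaving out single libraries moved it between 0.02 and 0.39. Its tissue-restricted copy Rbpjl had 0 counts.

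The target genes had positive log2 fold changes, and none passed the threshold. Hes1 (ENSMUSG00000022528, chr16:30064384-30067796, plus strand), a repressor of myogenic genes, was at 176 and 145 CPM in female Myf5High and at 155 and 92.2 CPM in male Myf5High. Hes1 in Myf5Low was at 128 and 175 CPM in females and at 98.6 and 147 CPM in males. Each fraction was higher in 2 of the 4 pools. For Hes1, edgeR gave a log2 fold change of 0.04 (95% interval -0.41 to 0.49, SE 0.215) at an adjusted p of 0.986. Leaving out single libraries gave values of both signs, from -0.17 without the first male Myf5High library to 0.21 without the second.

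Hey1 (ENSMUSG00000040289, chr3:8663359-8667256, minus strand), known to be required with Heyl for muscle stem cell quiescence, was at 66.5 and 57.7 CPM in female Myf5High and at 91.8 and 101 CPM in male Myf5High. Hey1 in Myf5Low was at 46.3 and 64.3 CPM in females and at 57.5 and 52.9 CPM in males. Only the male Myf5High libraries stood above all others. For Hey1, edgeR gave a log2 fold change of 0.48 (95% interval 0.05 to 0.92, SE 0.207) at an adjusted p of 0.443.

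Heyl (ENSMUSG00000032744, chr4:123233556-123249875, plus strand) was at 185 and 183 CPM in female Myf5High and at 224 and 133 CPM in male Myf5High. Heyl in Myf5Low was at 121 and 210.2 CPM in females and at 123 in both male libraries. The second female Myf5Low library was thus higher than 3 of the 4 Myf5High libraries, and the other Myf5Low libraries lay below all Myf5High ones. For Heyl, edgeR gave a log2 fold change of 0.35 (95% interval -0.10 to 0.80, SE 0.214) at an adjusted p of 0.716. This value moved with single libraries, to 0.14 without the first male Myf5High library, 0.17 without the first female Myf5Low library, 0.57 without the second female Myf5Low library and 0.51 without the second male Myf5High library.

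**Figure D4:**
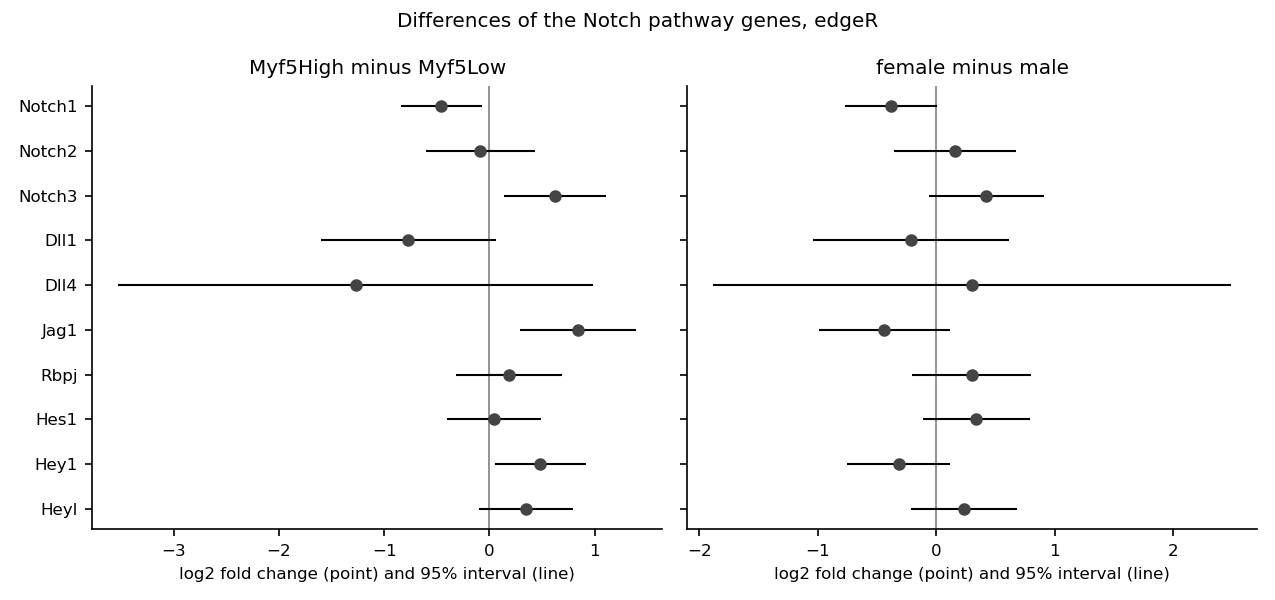
Log2 fold changes of the 10 genes (points) with their 95% intervals (lines) from edgeR, for Myf5High minus Myf5Low on the left and female minus male on the right. The intervals of Notch1, Notch3, Jag1 and Hey1 leave out 0 on the left before adjustment for the number of genes, and all 10 include 0 on the right. Dll4 has the widest interval in both panels.

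The fractions were also compared within each sex. In females 0 of the 10 genes passed the threshold by edgeR or by DESeq2, against 0.332% of all genes by edgeR and 0.912% by DESeq2, and Jag1 was the only one at an unadjusted edgeR p under 0.05 (7.35% of all genes). Its female log2 fold change was 1.18 (SE 0.377, 95% interval 0.39 to 1.97, edgeR adjusted p 0.316), and it passed in females when low counts were not filtered. In males 0 of the 10 passed by either tool, against 0.171% of all genes by edgeR and 0.614% by DESeq2, and 3 were at an unadjusted edgeR p under 0.05 (6.67% of all genes). These were Hey1 (0.81, SE 0.293, edgeR adjusted p 0.513), Notch3 (0.72, SE 0.326, edgeR adjusted p 0.726) and Notch1 (-0.56, SE 0.260, edgeR adjusted p 0.727).

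The difference of these differences was tested as the interaction of sex and fraction. It called 0 of the 10 genes by edgeR and by DESeq2, with 0 at an unadjusted p under 0.05 by either tool, beside 0.00% called and 4.55% at an unadjusted p under 0.05 over all genes by edgeR, and 0.0171% and 4.76% by DESeq2. For Jag1 the female minus male difference of log2 fold changes was 0.68 (95% interval -0.43 to 1.78) and for Hey1 it was -0.64 (95% interval -1.51 to 0.23). These intervals are wide, and a difference between the sexes of 1 log2 unit in either gene lies within them in 1 direction. For Rbpj the difference was 0.70 (95% interval -0.31 to 1.71), from 0.54 in females and -0.16 in males. For Dll4, with few counts, it was 1.94 (95% interval -2.56 to 6.43). Without the second male Myf5High library, edgeR called 0 of the 10 in females (against 0.900% of all genes in that fit), 0 in males (0.589%) and 0 for the interaction (0.0637%). At an unadjusted p under 0.05 there were then 1, 4 and 0 of the 10, against 9.14%, 10.9% and 8.31% of all genes.

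The sexes were also set against each other across both fractions. Since both fractions of a pool are treated as coming from the same mice, this rests on 2 independent pools for each sex. None of the 10 genes passed the threshold, against 1.65% of all genes, and 0 were at an unadjusted edgeR p under 0.05 (13.9% of all genes). DESeq2 called 0 of the 10, against 3.16% of all genes, and had 1 at an unadjusted p under 0.05, against 14.3%. For none of the 10 were the sexes without overlap, against 7.08% of all genes. Notch1 came nearest to the threshold. Its mean was 122 ± 20.1 CPM over the female libraries and 160.1 ± 38.9 CPM over the male ones (SD, n = 4 libraries from 2 pools each). The edgeR log2 fold change was -0.38 (95% interval -0.77 to 0.01, SE 0.184) at an adjusted p of 0.368.

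Notch3 had the higher female mean, 238 ± 70.8 against 179 ± 82.5 CPM, with a log2 fold change of 0.43 (95% interval -0.06 to 0.91, edgeR adjusted p 0.431). Jag1 had the higher male mean, 76.6 ± 23.8 against 60.4 ± 30.3 CPM, with a log2 fold change of -0.44 (95% interval -0.99 to 0.12, edgeR adjusted p 0.491). The other 7 genes had log2 fold changes between -0.32 (Hey1) and 0.34 (Hes1). Under the alternatives tried, the value lay between -0.48 and -0.27 for Notch1, 0.22 and 0.72 for Notch3, and -0.83 and -0.20 for Jag1. Without the second male Myf5High library, edgeR called 0 of the 10 and had 0 at an unadjusted p under 0.05, against 1.83% and 12.9% of all genes, and the values were -0.27 for Notch1, 0.22 for Notch3 and -0.25 for Jag1. The summed level of the endothelial markers was 331 to 587 CPM in females and 592 to 1051 CPM in males, without overlap. Egfl7 alone of these 10 markers was called lower in females, against 1.65% of all genes in either direction. Among the 10, 1 log2 fold change was positive and 9 were negative, with 5 at an unadjusted edgeR p under 0.05 (13.9% of all genes). Of the 9 commitment genes tested Mef2c and Myh3 were called lower in females, and 4 had positive and 5 negative log2 fold changes. Myog in Myf5Low was at 155 and 532 CPM in females and at 125 and 93.5 CPM in males. Of the 12 early genes of dissociation Dusp1 was called higher, and 9 had positive and 3 negative log2 fold changes. The part of these markers in the Notch1, Notch3 and Jag1 values was not tested.

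The rest of the pathway was read from a list of 57 further genes, written with earlier results of these data known. Its shares of calls are therefore descriptions and no test of the list. Of the 57 genes, 51 passed the filter on low counts. Between the fractions 2 were called higher in Myf5High (Col5a1 and Col5a3) and 1 was called lower (Hes6), beside 0.767% and 0.435% of all genes, with a median log2 fold change of -0.10. At an unadjusted edgeR p under 0.05 there were 9 of the 51, against 9.36% of all genes. The fractions did not overlap for 7 of the 51, against 4.58% of all genes. The same direction in all 4 pools was found for 12, against 16.3%. DESeq2 called the same 3 genes, against 1.99% of all genes in either direction. All 3 stand in the listed group of target genes and HES relatives, of which 7 of 11 could be tested and 4 were at an unadjusted edgeR p under 0.05. Hes6 is a relative by family and is not known as a gene switched on by Notch. The other 5 groups had no call by edgeR or DESeq2. They were other receptors and ligands (4 of 6 tested, 0 at an unadjusted edgeR p under 0.05), enzymes that modify receptors or ligands and sort ligands (9 tested, 2 at an unadjusted p), receptor cleavage (9 tested, 1 at an unadjusted p), the nuclear complex and its corepressors (12 tested, 0 at an unadjusted p), and negative regulators (10 tested, 2 at an unadjusted p).

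Hes6, a HES-family protein that counteracts Hes1 and is made by differentiating myoblasts, was the single gene of this list called lower in Myf5High. It was at 57.8 and 85.1 CPM in female Myf5High and at 59.7 and 51.8 CPM in male Myf5High. Hes6 in Myf5Low was at 120.4 and 99.1 CPM in females and at 183 and 124 CPM in males. No Myf5High library reached the lowest Myf5Low value, and edgeR gave a log2 fold change of -1.04 ± 0.211 (SE) at an adjusted p of 0.0145. The call was lost without the first female Myf5High library (-0.92, edgeR adjusted p 0.126), without the first female Myf5Low library (-0.97, edgeR adjusted p 0.0555) and without the first male Myf5Low library (-0.88, edgeR adjusted p 0.0834). Myog had the same direction in the same libraries, and its part in the Hes6 values was not tested.

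Col5a1 and Col5a3 encode chains of collagen V, an extracellular matrix protein known as a product of Notch signalling in quiescent muscle stem cells. Col5a3 was at 378, 380.2, 379.7 and 311 CPM in the 4 Myf5High libraries and between 144 and 186 CPM in Myf5Low. Col5a1 was between 156 and 209 CPM in Myf5High and between 72.7 and 102 CPM in Myf5Low. The fractions did not overlap for either gene, with edgeR log2 fold changes of 1.14 ± 0.173 (SE) at an adjusted p of 0.00128 and 1.09 ± 0.195 at 0.00592, and both were called under all 14 alternatives tried. Collagen V is also made by fibro-adipogenic cells, whose 10 listed markers summed to 1165 to 2166 CPM in Myf5High and 935 to 1124 CPM in Myf5Low, with Dpt called higher (1.05, SE 0.176, edgeR adjusted p 0.00328). The part of such cells in the collagen values was not tested.

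By principal transcript length, the 2 genes of the list with the highest levels were Dtx4, an E3 ligase of the Deltex family (274 CPM per kilobase), and Snw1, a nuclear protein that binds the Notch-RBPJ complex (92.3 CPM per kilobase). With the length of all annotated exons, an alternative added after the values were seen, Dtx4 had the same rank and Snw1 (31.3 CPM per kilobase) came after Hes6, Col5a3 and Ncor1. Snw1 shares 2914 exon bases with Slirp on the opposite strand. Dtx4 was at 1448, 1694, 1608 and 1733 CPM in Myf5High and at 1368, 943, 1312 and 1342 CPM in Myf5Low, without overlap, and its edgeR log2 fold change of 0.39 ± 0.178 (SE) had an adjusted p of 0.504, above the threshold. Snw1 lay between 177 and 249 CPM in Myf5High and between 158 and 283 CPM in Myf5Low (log2 fold change -0.09, SE 0.184, edgeR adjusted p 0.958). Between the sexes 0 of the 51 genes were called by edgeR, against 1.65% of all genes, with 8 of 51 at an unadjusted p under 0.05 against 13.9% of all genes. DESeq2 called 1 of them, Neurl1a, against 3.16% of all genes. In females 1 was called by edgeR, Col5a3 (1.30, SE 0.245, edgeR adjusted p 0.0235), against 0.332% of all genes, with 6 of 51 at an unadjusted p under 0.05 against 7.35%. In males 0 were called by edgeR, against 0.171% of all genes, with 7 at an unadjusted p under 0.05 against 6.67%. DESeq2 called Col5a1, Col5a3 and Hes6 in males, against 0.614% of all genes.

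**Figure D5:**
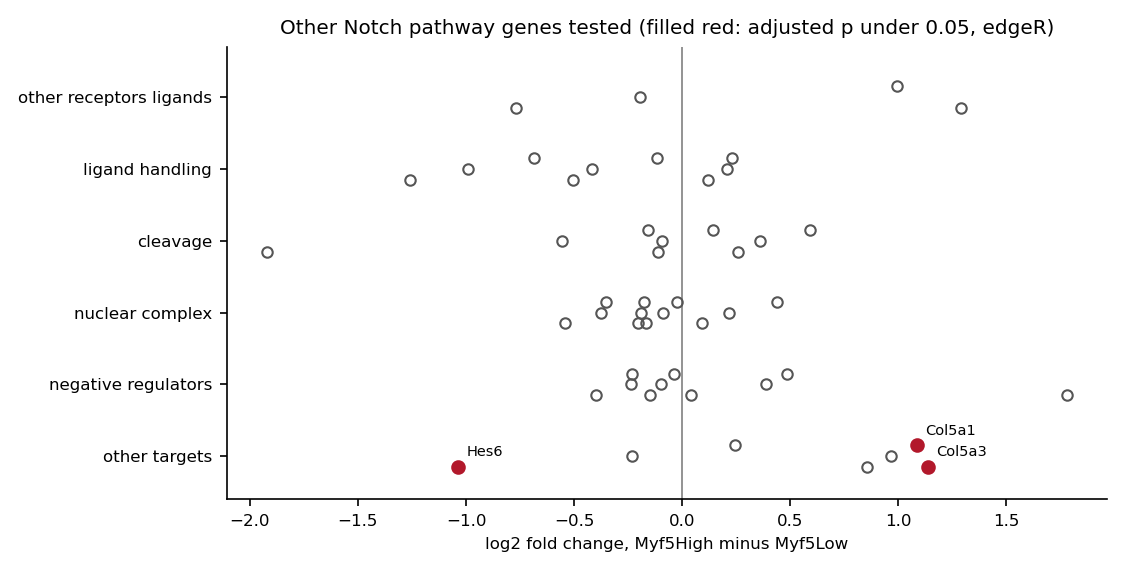
Log2 fold changes, Myf5High minus Myf5Low, of the 51 further Notch pathway genes that could be tested, in rows by role. Filled red points passed an edgeR adjusted p under 0.05. The list was written with earlier results of these data known. The 3 called genes, Hes6 at -1.04, Col5a1 at 1.09 and Col5a3 at 1.14, lie in the row of targets, which also holds HES relatives such as Hes6, and the other rows scatter on both sides of 0.

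Markers of other cells were also compared between the fractions. By edgeR 1 of 10 mural and 1 of 6 immune markers tested were called lower in Myf5High, against 0.435% of all genes. Of the 10 endothelial markers 0 were called, and 1 of 9 fibro-adipogenic markers tested was called higher, against 0.767% of all genes. The 10 mural markers summed to 215 to 279 CPM in Myf5High and 314 to 614 CPM in Myf5Low, without overlap, with Acta2 called lower in Myf5High (-1.73, SE 0.232, edgeR adjusted p 0.00039). Mural cells are also known to transcribe Notch3, Heyl and Jag1. Of the immune markers C1qa was called lower in Myf5High (-2.13, SE 0.394, edgeR adjusted p 0.0077), and of the glial markers 0 were called by edgeR or DESeq2, with 0 at an unadjusted edgeR p under 0.05.

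Of the 10 muscle stem cell markers 3 were called higher in Myf5High, against 0.767% of all genes. These were Msc (1.31, SE 0.234, edgeR adjusted p 0.00592), Calcr (0.89, SE 0.207, edgeR adjusted p 0.0388) and Des (0.80, SE 0.191, edgeR adjusted p 0.0468). Their list had 8 positive and 2 negative log2 fold changes, and 7 and 3 in males. It summed to 8346 to 10877 CPM in Myf5High and 7525 to 8590 CPM in Myf5Low. The commitment genes Myog and Mymk were called lower, 2 of 9 tested, against 0.435% of all genes. Mymk had no count in any Myf5High library and was at 4.29 to 67.6 CPM in Myf5Low. Across the 9 commitment genes 1 log2 fold change was positive and 8 were negative, and in males 4 were positive and 5 negative. The commitment list summed to 157 to 504 CPM in Myf5High and 417 to 956 CPM in Myf5Low, with overlap. All 12 early genes of tissue dissociation had positive log2 fold changes, with 0 called by edgeR against 1.20% of all genes and 4 at an unadjusted edgeR p under 0.05 against 9.36%. DESeq2 called 1, Ier3, against 1.99% of all genes. The same direction in all 4 pools was found for 4 of these 12 genes, 10 of 12 had positive log2 fold changes in males, and their summed level was 22338 to 40026 CPM in Myf5High and 21286 to 30534 CPM in Myf5Low. In the first male pool the Myf5Low library had the higher sum. Mymk, the immune marker Tyrobp and the glial marker Foxd3 were at 0 in every Myf5High library, and the listed endothelial and mural markers were each counted in both fractions. The part of any of these markers in the Notch pathway values was not tested.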

How the data were processed

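The deposited table held raw counts per Ensembl gene, made by the authors with HTSeq on GRCm38 per the submitters' processing notes. The aligner, the annotation release and the strand setting are not given in the sources used here. Single-read sequencing was done on polyA RNA, per the labels' protocols. Genes were matched by identifier to GENCODE M21 (27518 of 27554), and promoters came from RefSeq on GRCm38.p6. The 5 HTSeq tallies were left out of library sizes (reads in no gene were 42.0 to 45.3% of the total, ambiguous reads 0.248 to 0.296%).

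Counts were scaled by TMM, filtered with filterByExpr (minimum count 10, minimum total 15) and tested two-sided with edgeR 4.0.16 in R 4.3.3 (quasi-likelihood, 1 mean per group, no block), with Benjamini-Hochberg adjustment over all 11730 genes. DESeq2 1.42.0 was an alternative. The fits were tested on simulated data. CPM values use TMM library sizes, and a level per kilobase divides CPM by the longest APPRIS principal transcript. The CPM value of 3 counts reflects counting error only, while the 95% intervals of log2 fold changes come from the edgeR fit and include the spread between libraries. Replicates of a group came from separate pools and differed by more than counting noise (chi-square per degree of freedom 8.42 to 25.8). The common biological coefficient of variation was 0.36.

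Myf5High and Myf5Low libraries of 1 sex and replicate number were taken as pairs, because their pool labels share the sex letter and number, though no label says so outright. Deviations of such pairs from their group means correlated across genes at 0.0275 in females and -0.00027 in males.

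All 10 genes are named. Of the 57 further pathway genes, those called and the 2 with the highest level per length are named, with Dll4's nearest genes in pattern and called cell type markers, and Neurl1a, Ncor1 and Ier3 after their values were seen. The members and lists were chosen with earlier results of these data known. The alternatives were RLE scaling, no filter, library sizes without Gm42418 and mitochondrial genes, DESeq2, the pool as a replicate block, an additive model, summed pools, and leaving out each library.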

Additional observations from a re-analysis of the deposited data

Results flagged for a closer look

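In each of the 10 genes, the highest and lowest of the 4 libraries of a fraction or of a sex were compared with their nearest neighbour, giving 40 groups of 4. In 4 of these groups the gap exceeded Dixon's 95% critical share of the group's range, and by chance about 1 in 20 groups would do so. Notch1 was at 148 CPM in the second male Myf5High library, above the other Myf5High libraries. Notch2 was at 40.3 CPM in the first male Myf5Low library, below the other Myf5Low libraries. Heyl was at 210 CPM in the second female Myf5Low library, above the other Myf5Low libraries, and at 224 CPM in the first male Myf5High library, above the other male libraries.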

How the results depend on the processing

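Of 280 values of the 10 genes under the alternatives (14 for each of the 2 main comparisons), 277 remained not called and 3 were called, those given above for Jag1 and Notch3. No called value changed sign, and 10 values called in neither setting did. The pool as a replicate block changed no call of the 10 genes or of Hes6, Col5a1 and Col5a3, and gave 136 called genes over all genes between the fractions (33 in females, 26 in males, 0 for the interaction). Calls over all genes moved more with other settings. Between the fractions there were 141, with 291 without a filter, 234 by DESeq2 and 82 to 243 when each library was left out. In females there were 39, with 167 without a filter, 107 by DESeq2 and 9 to 117 with a library left out. In males there were 20, with 111, 72 and 8 to 74. The interaction gave 0, with 14, 2 and 0 to 8. Between the sexes there were 194, with 477, 371 and 82 to 558. The cause was not tested. With 2 libraries per group, the 95% intervals between the fractions included 0 for Notch2, Rbpj, Hes1, Heyl, Dll1 and Dll4. The intervals of the other members left out 0 only before adjustment for the number of genes. Dll4 had 2 to 22 counts per library.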

Other observations

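Dll4 had the widest range of the 10 genes over the 8 libraries, 2.53 log2 units. Among 9548 genes that averaged 5 CPM or more, those whose log2 CPM followed it most closely were Angpt1, Gcnt2 and Fap, at mean absolute differences of 0.23, 0.24 and 0.26 after centring. Dll4 is near the limit of counting. For Jag1, with a range of 2.34 log2 units and looked at after its values were seen, the nearest genes were Pcdh19 (0.20), Dtwd2 (0.22) and Coa7 (0.23), and the nearest of the other 9 genes was Hey1 (0.41). For Notch3, also looked at afterwards, they were Chmp5 (0.12), Stx16 (0.13) and Dnal4 (0.14), and the nearest of the other 9 was Hes1 (0.28). These are descriptions over 8 libraries.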
